A study of Mus musculus with 50 samples.

Results

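The genes that encode the chains of fibrillar collagens I, III and V were examined in mouse liver by CosMx spatial molecular imaging, in which single RNA molecules are decoded in place on a tissue section and assigned to segmented cells. The 6 members were the collagen I chains Col1a1 and Col1a2, the collagen III chain Col3a1 and the collagen V chains Col5a1, Col5a2 and Col5a3. They were chosen by name, as the targets of these 3 collagen types, among the 1000 gene targets of the panel. The groups were control mice (wild-type C57BL/6) and HIRA KO mice (HIRA fl/fl C57BL/6). Both groups received AAV8-TBG-Cre, a viral vector that drives Cre recombinase from a hepatocyte-specific promoter, at 6 months of age, and livers were collected 12 months later, at 18 months. HIRA, a chaperone of histone H3.3, was therefore deleted in hepatocytes alone by design, and the deletion itself could not be checked because Hira was no target of the panel. Sections of the median lobe, 5 µm thick and paraffin-embedded, were imaged in 50 fields of view on 1 slide, 25 fields per group. The fields formed 3 separate tissue areas per group (control areas 1 to 3, HIRA KO areas 1 to 3), and the area was used as the replicate. The labels tied no field to a mouse, so p-values measured the spread between areas.

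Fibrillar collagens are triple helices that assemble into the banded fibrils of connective tissue. Collagen I is built from chains of Col1a1 and Col1a2, collagen III from chains of Col3a1 alone, and collagen V, which is laid down inside collagen I fibrils and limits their diameter, mostly from chains of Col5a1 and Col5a2, with Col5a3 in a rarer form. In the liver these collagens lie around portal tracts and central veins, they are made by hepatic stellate cells, portal fibroblasts and myofibroblasts, and collagens I and III accumulate in fibrosis. Hepatocytes are the main cells of the tissue and are no major source of them.

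The members lie on 5 chromosomes in GRCm38.p6: Col1a1 on chromosome 11 (94936224 to 94953042, plus strand), Col1a2 on chromosome 6 (4504814 to 4541544, plus strand), Col3a1 on chromosome 1 (45311538 to 45349706, plus strand), Col5a1 on chromosome 2 (27886425 to 28039514, plus strand), Col5a2 on chromosome 1 (45374321 to 45503282, minus strand) and Col5a3 on chromosome 9 (20770050 to 20815067, minus strand). Col3a1 and Col5a2 are neighbours on opposite strands, with 24615 bases between them. RefSeq promoter sequence (GRCm38.p6, from 250 bases before to 50 bases after the annotated start) was held for 4 of the 6 members. Those of Col1a2 and Col3a1 are shown because these genes varied together across fields and cells (below). That of Col5a3 is shown because it did not vary with them across fields. Capitals mark 3 motifs that were searched on both strands, the CCAAT box by those letters, the TATA box as TATAAA and the GC box by the letters GGGCGG, or their complements.
Col1a2 (chr6:4505368-4505667, plus strand): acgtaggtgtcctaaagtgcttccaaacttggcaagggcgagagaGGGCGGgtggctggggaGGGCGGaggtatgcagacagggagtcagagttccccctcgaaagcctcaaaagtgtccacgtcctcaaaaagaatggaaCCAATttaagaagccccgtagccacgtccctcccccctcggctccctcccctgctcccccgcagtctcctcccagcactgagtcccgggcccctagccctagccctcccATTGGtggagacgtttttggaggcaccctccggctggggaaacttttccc
Col3a1 (chr1:45311288-45311587, plus strand): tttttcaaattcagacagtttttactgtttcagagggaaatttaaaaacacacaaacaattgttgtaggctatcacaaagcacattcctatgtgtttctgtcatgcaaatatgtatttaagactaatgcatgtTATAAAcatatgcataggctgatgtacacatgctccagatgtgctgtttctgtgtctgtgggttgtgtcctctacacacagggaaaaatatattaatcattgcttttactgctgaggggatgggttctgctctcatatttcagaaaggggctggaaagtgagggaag
Col5a3 (chr9:20815018-20815317, minus strand): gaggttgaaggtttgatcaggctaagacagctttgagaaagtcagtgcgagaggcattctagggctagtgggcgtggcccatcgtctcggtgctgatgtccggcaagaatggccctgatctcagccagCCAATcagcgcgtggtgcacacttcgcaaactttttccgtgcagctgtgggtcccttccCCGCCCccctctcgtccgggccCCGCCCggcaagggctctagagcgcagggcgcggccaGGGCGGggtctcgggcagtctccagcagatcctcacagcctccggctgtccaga
The Col1a2 window held CCAAT at -109 from the start site and 2 GC boxes at -205 and -188, and a minus-strand CCAAT at 1. The Col3a1 window held TATAAA at -117 and neither other motif. The Col5a3 window held CCAAT at -122 and 3 GC boxes. Among 32851 promoters of the same length, 37.4% held CCAAT, 13.6% TATAAA and 35.7% GGGCGG, so the motifs are common ones and their presence is a description only.

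Of 52132 segmented cells, 49665 with at least 20 counts and no outsized area were kept. The areas held 718991 to 1066387 gene counts in control and 1292256 to 1542205 in HIRA KO, with median counts per cell of 88 to 134 and 104 to 147. On the slide, the 2 groups lay side by side in separate columns, so column and genotype cannot be told apart. Every slide row (3 in all) paired a control with a HIRA KO area. Levels are given as counts per 1000000 gene counts (CPM), and levels of different targets were not set against each other, because each target has its own probes. The 10 negative probes, which match no transcript, had 3057 counts at their median and 3828 at the highest. Col1a1 (5264 counts), Col1a2 (7194) and Col5a3 (7752) lay above that range, whereas Col3a1 (3251), Col5a1 (2659) and Col5a2 (1477) had no more counts over all cells than the highest negative probe, as did 243 of the 1000 targets. The levels of these last 3 members over all cells were therefore not separated from background.

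Over all cells, Col1a1 and Col3a1 were higher in every HIRA KO area than in every control area, and the 3 collagen V chains were not. Col1a1 had 633, 543 and 544 CPM in the control areas and 1014, 951 and 709 CPM in the HIRA KO areas (573 ± 52.0 against 891 ± 161 CPM, SD, n = 3 each). Col3a1 had 339, 276 and 441 CPM in control and 544, 661 and 459 CPM in HIRA KO (352 ± 83.4 against 554 ± 101). The groups overlapped for neither gene, although control area 3 and HIRA KO area 3, which share a slide row, differed little in Col3a1 (log2 difference 0.06, against 0.68 and 1.26 in the other slide rows). Col1a2, the partner chain of Col1a1, had 1045, 856 and 946 CPM in control and 1129.8, 1189.9 and 1021 CPM in HIRA KO, and the groups overlapped. Of all 998 targets tested, 2.51% were higher in every HIRA KO area and 16.7% lower in every one.

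The collagen V chains gave no such separation. Col5a1 had 297, 453 and 426 CPM in control and 371, 460.4 and 309.5 CPM in HIRA KO. Col5a2 had 227, 190.4 and 181 CPM against 309.5, 200.4 and 172 CPM. Col5a3 had 1349, 1123 and 1099 CPM against 1139, 1078 and 1057 CPM. Each of these 3 genes had control and HIRA KO areas that overlapped. In edgeR's quasi-likelihood test, Col1a1 alone of the members passed (log2 fold change 0.74, SE 0.12, adjusted p = 0.0272), among 2 called of 998 targets (0.2%). Col3a1 had a log2 fold change of 0.77 (SE 0.17, adjusted p = 0.208) and passed with the slide row as a block (0.79, adjusted p = 0.0216) and with DESeq2 (adjusted p = 0.000317). Col1a2 had a log2 fold change of 0.34 (adjusted p = 0.571), and the collagen V chains of -0.01 to 0.29 (adjusted p = 0.788 or more). The mean negative probe was at 420 ± 49.2 CPM in control and 425 ± 24.7 CPM in HIRA KO. The Col1a1 call was lost when an area was dropped from the control group, area 2 (adjusted p = 0.278) or 3 (0.129), or from HIRA KO, area 1 (0.0922) or 2 (0.0868), and without 1 field of HIRA KO area 2, field 28 (0.69, adjusted p = 0.0513). A sum over all cells cannot tell a change in the number of collagen-making cells from a change in RNA per cell, so cell classes were examined next.

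**Figure D1:**
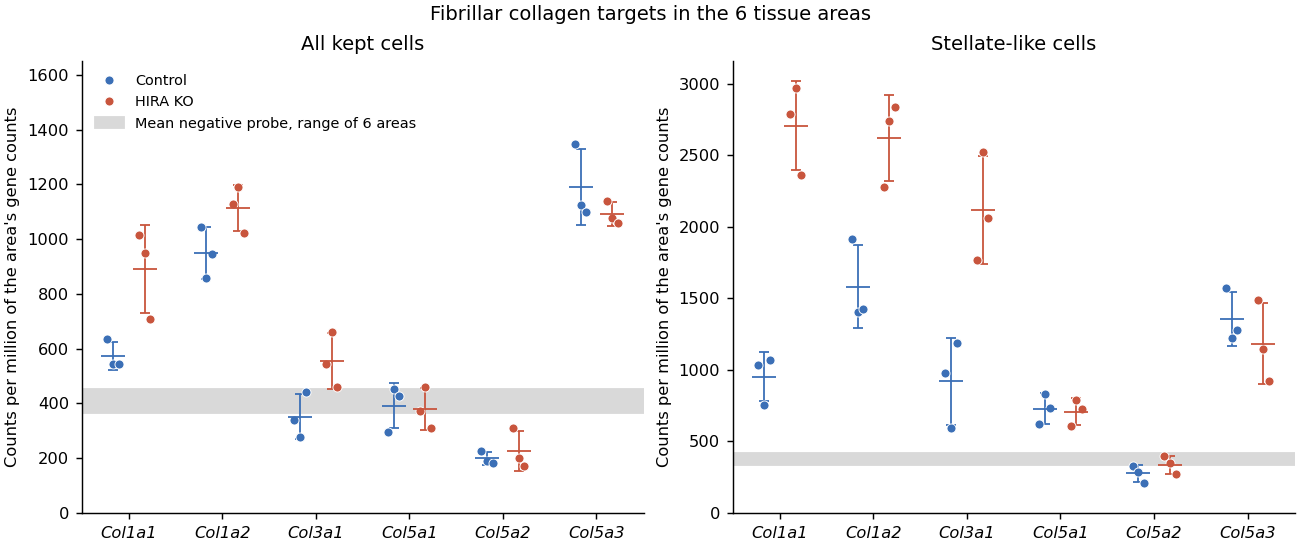
Level of each member (CPM, linear axes from 0, which differ between panels) in each tissue area, over all kept cells (left) and in stellate-like cells (right). Points are areas, horizontal lines with bars are group means and SD, and the grey band is the range of the mean negative probe. Over all cells only Col1a1 and Col3a1 have the HIRA KO areas above all control areas, and in stellate-like cells Col1a2 does too.

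Cells were clustered on the other targets of the panel, without the 6 members, so that no member took part in defining a class, although genes that vary with them did. Classes were named from marker lists, and no doublet caller was run. The stellate-like class had 4926 cells (2093 control, 2833 HIRA KO). It was led by Dcn and Bgn, which encode small proteoglycans of the matrix, Cxcl12, a chemokine, Col14a1, a fibril-associated collagen, and Bmp5. Sub-clustering split it into 3610 cells led by Rgs5 and Hgf, 757 cells with raised hepatocyte transcripts (Ttr, Gc, Azgp1), and 559 cells led by Mgp, Gsn and Dpt. This last sub-cluster was left unnamed, because markers of portal fibroblasts and of monocytes or dendritic cells were equally frequent among its 10 leading genes.

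Collagens I and III were concentrated in the stellate-like class, and collagen V chains were so to a lesser degree or not at all. Mean Col1a1 levels over the 6 areas were 1829.7 ± 988 CPM in stellate-like cells, 1294 ± 606 CPM in myofibroblast/smooth muscle-like cells, 887 ± 372 CPM in cholangiocyte-like cells and 510.4 ± 79.4 CPM in hepatocyte-like cells. T/NK-like (665 CPM), large-vessel endothelial-like (643 CPM), sinusoidal endothelial-like (577 CPM) and Kupffer-like cells (525 CPM) lay between the last 2, within one another's spread. H2-Aa-led cells, an unnamed class, were at 999 ± 416 CPM. Among the 4 classes named first, Col3a1 had the same order, with 1519 ± 725, 755 ± 434, 474 ± 201 and 286 ± 32.5 CPM, as had Col1a2, with 2100.1 ± 627, 1209 ± 431, 969 ± 220.1 and 858 ± 61.3 CPM. Other classes came between these for Col3a1 (H2-Aa-led, 680.1 CPM, B-lineage-like, 559 CPM, and T/NK-like, 479 CPM). The same held for Col1a2 (among others S100a9-led, 1255 CPM, H2-Aa-led, 1206 CPM, and B-lineage-like, 1062 CPM). B-lineage-like Col1a1 was at 801 CPM, and that class had only 9 cells in control area 2. The myofibroblast/smooth muscle-like and cholangiocyte-like levels lay within the spread between areas for each of these 3 genes. Much of the spread in the stellate-like class was between genotypes (below).

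Against hepatocyte-like cells in the same areas, stellate-like cells had higher Col3a1 (log2 fold change 2.52), Col1a1 (1.91), Col1a2 (1.33), Col5a1 (0.998) and Col5a2 (0.56, adjusted p = 0.00111). Col5a3 showed no difference that passed the test (0.08, 95% interval -0.09 to 0.25, adjusted p = 0.480). So 5 of the 6 members passed in this direction, where 25.8% of the 998 targets did. By size of this fold, Col3a1 ranked 7, Col1a1 14, Col1a2 25 and Col5a1 50 among the 1000 targets, and Col5a3 ranked 394. Stellate-like Col5a1 was at 719 ± 90.5 CPM and Col5a3 at 1270.4 ± 237 CPM, where Col5a2, at 307 ± 64.8 CPM, was below the mean negative probe of that class (367 CPM). In hepatocyte-like cells, Col1a1 (510.4 CPM) was near the mean negative probe (487 CPM), and Col3a1 was below it.

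**Figure D2:**
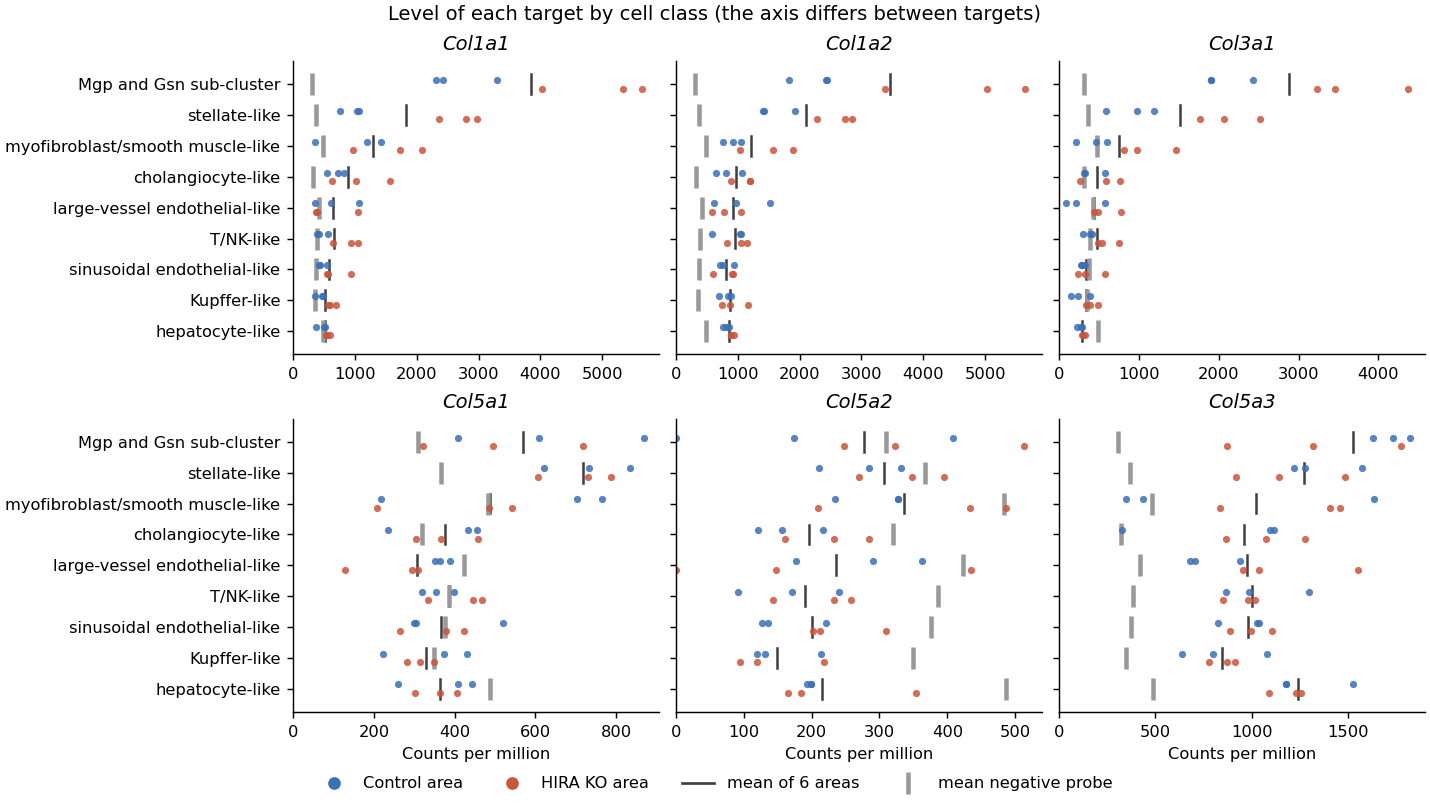
Level of each member (CPM, linear axes from 0 that differ between panels) in 8 cell classes and the Mgp and Gsn sub-cluster. Points are control and HIRA KO areas, thin black lines the mean of the 6 areas and thick grey lines the mean negative probe. The collagen I and III chains are highest in the sub-cluster and the stellate-like class, and the mean of Col5a2 lies below the negative probes in every class shown.

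The unnamed sub-cluster led by Mgp, an inhibitor of calcification that binds matrix, and Gsn, an actin-severing protein, had the highest levels of collagens I and III. Col1a1 was at 2309.8, 2430.1 and 3299.8 CPM in its control cells and 4035, 5339 and 5649 CPM in its HIRA KO cells. Col3a1 was at 1902, 2430.1 and 1910.4 CPM against 3458, 4364 and 3228 CPM, and Col1a2 at 2446, 1823 and 2431 CPM against 3376, 5031 and 5649 CPM. All 3 HIRA KO areas were thus above all control areas for the 3 genes. The share of all targets that separated in this way in the sub-cluster was not counted. These values rest on 17 to 85 cells per control area and 61 to 199 per HIRA KO area, and the difference was not tested because control area 2 had only 17 such cells and 4 Col1a1 counts.

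Within the stellate-like class, collagen I and III transcripts were higher in HIRA KO. Col1a1 was at 1035, 753 and 1067 CPM in control and at 2789.7, 2969 and 2364 CPM in HIRA KO, and the lowest HIRA KO area was above the highest control area by a wide margin. Col3a1 was at 979.9, 590.4 and 1189 CPM in control and at 1771, 2522 and 2063 CPM in HIRA KO, again without overlap. Col1a2 was at 1918, 1405 and 1422 CPM in control and at 2276, 2739 and 2840.5 CPM in HIRA KO, also without overlap but with a smaller distance. Of all targets, 5.01% were higher in every HIRA KO area of this class and 7.11% were lower in every one.

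Col1a1 rose by a log2 fold change of 1.53 (SE 0.20, adjusted p = 8.87e-05) and Col3a1 by 1.20 (SE 0.22, adjusted p = 0.00767), in edgeR's quasi-likelihood test. Only 3 of the 998 targets (0.301%) passed in this class, and the third was Col6a3, a chain of the beaded-filament collagen VI (0.93, SE 0.20, adjusted p = 0.0420). Col1a2 had a log2 fold change of 0.77 (SE 0.20) that did not pass (adjusted p = 0.146), but passed with the slide row as a block (adjusted p = 0.000645). The Col1a1 call held when any 1 area was left out (1.39 to 1.65). The Col3a1 call was lost when control area 1 (1.22, adjusted p = 0.161), control area 2 (0.99, adjusted p = 0.0607) or the second HIRA KO area (1.07, adjusted p = 0.166) was dropped.

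No collagen V chain passed in the stellate-like class. Col5a1, which pairs with collagen I in the fibril, was at 621, 835 and 733 CPM in control and 606, 788 and 729.96 CPM in HIRA KO (log2 fold change 0.02, adjusted p = 0.982). Its areas were fully interleaved. Col5a2 was at 331, 285 and 211 CPM against 395, 348 and 269.8 CPM (0.39, adjusted p = 0.803), and Col5a3 at 1573, 1222 and 1278 CPM against 1487, 1143 and 920.4 CPM (-0.14, adjusted p = 0.934). Both had overlapping groups.

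The fields showed the same order of members as the areas, though fields of 1 area are not independent. Stellate-like Col1a1 had a median of 968 CPM over the 25 control fields (209 to 1703) and of 2312 CPM over the 25 HIRA KO fields (1057 to 5769.7). All 25 HIRA KO fields were above the control median for Col1a1, 23 for Col3a1 and 20 for Col1a2. For Col5a1, Col5a2 and Col5a3 the numbers were 11, 15 and 10, close to an even split.

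Other features of the stellate-like class also moved with genotype. The summed level of the hepatocyte marker list (12 of 12 detected) was 39554 to 49300.0 CPM in control areas and 49884 to 65205 CPM in HIRA KO areas, and that of the 6 myofibroblast markers was 5600.0 to 6335 against 6633 to 7919 CPM. The Mgp and Gsn sub-cluster made up 3.88 to 11.1% of the class in control and 11.8 to 15.1% in HIRA KO, and the sub-cluster with hepatocyte transcripts 7.18 to 13.7% against 14.4 to 26.6%. The part of these shifts in the collagen difference was not tested. Within the Rgs5 and Hgf sub-cluster alone, which was defined after the values were seen, Col1a1 was higher by 1.74 (adjusted p = 9.29e-07) and Col3a1 by 1.26 (adjusted p = 0.00129, 0.501% of targets called). Mean counts per stellate-like cell were 94.6 to 112 in control and 109 to 122 in HIRA KO, and the negative probes 348 to 371 against 336 to 418 CPM. The part of these values was not tested either. Without field 28, Col1a1 was higher by 1.43 (adjusted p = 0.000377) and Col3a1 by 1.11 (adjusted p = 0.0215).

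No difference passed in another class that was tested, and only named classes were. The unnamed H2-Aa-led class was not tested. It had Col1a1 at 749 ± 142 CPM in control and 1250 ± 474 CPM in HIRA KO. Its Col3a1 was at 498 ± 163 against 862 ± 243 CPM, and the groups overlapped for both genes. Across the 7 other classes tested, 35 member and class pairs gave 0 calls in edgeR and 0 in DESeq2, with 11 and 6 pairs at an unadjusted p under 0.05. The share of all targets at an unadjusted p is not given, so the 11 and 6 pairs have no background beside them. In edgeR, 0.402% of all targets passed in Kupffer-like cells, 0.401% in hepatocyte-like and in sinusoidal endothelial-like cells, 0.206% in large-vessel endothelial-like cells and 0% in the other 3 classes. Col1a1 was higher by 1.02 in T/NK-like cells (adjusted p = 0.0694), by 0.66 in cholangiocyte-like, 0.61 in sinusoidal endothelial-like, 0.56 in Kupffer-like and 0.52 in myofibroblast/smooth muscle-like cells, all less than the 1.53 of the stellate-like class. Col1a2 had 0.85 in myofibroblast/smooth muscle-like cells (adjusted p = 0.933), more than its 0.77 in stellate-like cells, and -0.35 in large-vessel endothelial-like cells (adjusted p = 0.962). Col3a1 was higher by 0.74 in T/NK-like, 0.68 in Kupffer-like, 0.65 in cholangiocyte-like and 0.32 in hepatocyte-like cells (adjusted p = 0.503 or more). In myofibroblast/smooth muscle-like cells, Col3a1 was at 600, 218 and 468 CPM in control and 812, 972 and 1461 CPM in HIRA KO. These areas did not overlap but rest on 2 to 20 counts each, and the share of all targets so separated there was not counted. In hepatocyte-like cells, where Hira was targeted, Col1a1 was at 506, 509 and 366 CPM in control and 602, 526.01 and 554 CPM in HIRA KO. The areas did not overlap, as for 2.71% of targets in this direction, and the log2 fold change was 0.39 (adjusted p = 0.267). The T/NK-like value passed when control area 1 (adjusted p = 0.0297) or HIRA KO area 3 (adjusted p = 0.0436) was left out.

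The genotype difference was larger in stellate-like than in hepatocyte-like cells for 2 members. In a test of the difference itself, it was larger by 1.16 for Col1a1 (log2, SE 0.18, adjusted p = 4.90e-08) and by 0.97 for Col3a1 (SE 0.19, adjusted p = 0.000104), among 12 of 998 targets called (1.2%, and 1.1% in this direction). Col1a2 had 0.54 (adjusted p = 0.0592), and the collagen V chains -0.10 to 0.09. Stellate-like and hepatocyte-like cells of the same areas share the slide column. The genotypes still lie in different columns, so column and genotype cannot be told apart here either. Hepatocyte-like Col1a1 (510.4 CPM) was near the mean negative probe of that class (487 CPM) and Col3a1 (286 CPM) was below it. The part of this in the difference was not tested.

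Transcripts of collagens I and III were found together in single cells. Among stellate-like cells, pooled over all areas and both genotypes, 4150 had no Col1a1 count and 64 had 3 or more. The cells with 3 or more had 11603 CPM of Col3a1 and 9989 CPM of Col1a2, against 1314 and 1829 CPM in cells with none. Dcn was at 13319 against 15898 CPM, but Lum was higher too, at 3733 against 1307 CPM. The collagen V chains were also higher, with Col5a1 at 1110 against 734, Col5a2 at 706 against 290 and Col5a3 at 1816 against 1256 CPM. By area, Col3a1 in the cells with 3 or more ran from 0 to 16030.4 CPM and Col1a2 from 2146 to 11952 CPM, and in the cells with none from 593 to 1751 and from 1322 to 2177 CPM. The pooled values thus mix genotypes that differ in these genes. Median total counts were 144.5 and 89 per cell in these groups. At least 1 Col1a1 count was seen in 15.8% of stellate-like cells (median total 93) and in 7.57% of hepatocyte-like cells (median total 140), and the latter share serves as the level of stray signal. Over the 50 fields, with all cells of a field summed and area means subtracted, Pearson's r was 0.828 for Col1a1 and Col3a1, 0.677 for Col1a1 and Col1a2 and 0.68 for Col1a2 and Col3a1. Pairs of these with collagen V chains had r from -0.03 to 0.29. These correlations are descriptive, since fields share an area and a total count.

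Cells rich in collagen I and III transcripts were almost absent from control areas. A cell with 5 or more counts of Col1a1, Col1a2 and Col3a1 together was found 1, 3 and 2 times in the control areas and 42, 76 and 37 times in the HIRA KO areas. This was 6 of 21947 control cells (0.0273%, exact Clopper-Pearson 95% interval 0.0100 to 0.0595%) and 155 of 27718 HIRA KO cells (0.559%, 0.475 to 0.654%), where the intervals cover counting error only. Over areas the shares were 0.0283 ± 0.0159% and 0.554 ± 0.176% (3 areas in each group, p = 0.1 in a two-sided exact permutation test, the lowest that 3 against 3 areas can give). The threshold of 5 was chosen after the values were seen, and at 3 or more counts the numbers were 44, 64 and 48 against 213, 305 and 186 cells, and at 8 or more 0, 1 and 0 against 10, 25 and 15. After every cell was thinned to 50 counts, cells with 3 or more of these counts made up 0.0309, 0.0342 and 0.0929% in control and 0.323, 0.592 and 0.227% in HIRA KO, still without overlap. The same cutoff of 5 applied to the collagen V chains gave 1, 4 and 0 cells against 5, 2 and 3 (p = 0.6, exact permutation test).

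Of the 161 collagen-rich cells, 74 were stellate-like (1, 0 and 2 in the control areas, 13, 40 and 18 in the HIRA KO areas), 39 belonged to an unnamed class led by H2-Aa, an MHC class II gene, 16 were hepatocyte-like, 10 cholangiocyte-like and 10 B-lineage-like. The 0 of 438 stellate-like cells in control area 2 allows a share of up to 0.685% by the limit of 3 counts, or 0.839% as the upper bound of the exact 95% interval, against a mean of 2.61% over the HIRA KO areas. They occurred in 6 of the 25 control fields and in 23 of the 25 HIRA KO fields. Field 28 held 42 of them and the next field 15. Their median total was 215 counts, against 111 over all cells, and the part of cell depth or of neighbouring cells merged by segmentation was not tested beyond the thinning above. Such cells held 8.35, 13.6 and 9.97% of the counts of the 3 genes in the HIRA KO areas, so most of the counts lay in cells with fewer. With them left out of the stellate-like class, Col1a1 was at 1037, 753 and 1003 CPM in control and 2519, 2154 and 1537 CPM in HIRA KO, and Col3a1 at 954, 590.4 and 1169.6 CPM against 1592, 1899 and 1537 CPM, both without overlap.

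**Figure D3:**
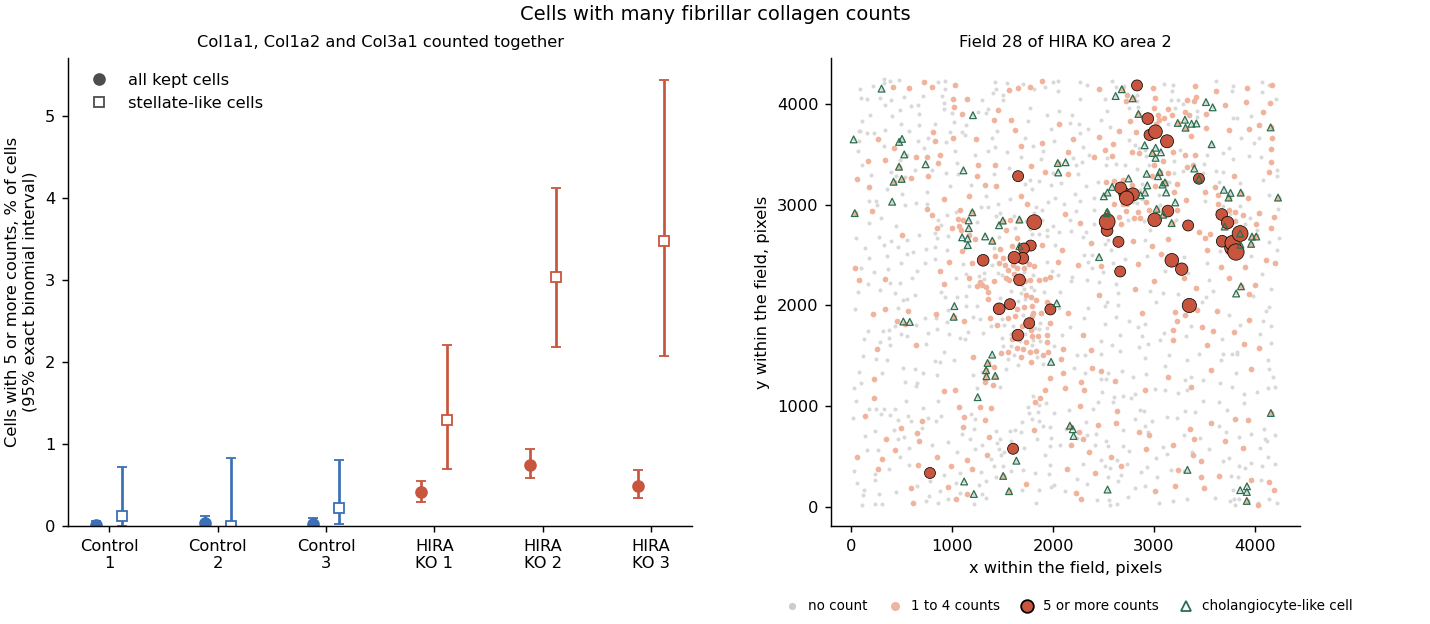
Left, share of cells (percent, linear axis from 0) with 5 or more counts of Col1a1, Col1a2 and Col3a1 together in each tissue area, filled circles for all kept cells, open squares for stellate-like cells, bars for the exact 95% binomial interval. Right, positions (pixels) of the cells of field 28, with larger filled points for cells with 5 or more counts and triangles for cholangiocyte-like cells. The control areas lie near 0 and the HIRA KO areas above them, and the 42 such cells of field 28 lie in patches.

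Position was measured as the distance in pixels to the nearest landmark cell of the same field, where a mean cell diameter is 118 pixels. Near was within 250 pixels and far beyond 1000 pixels, the landmark cells themselves were left out, and each area gave both zones. Around cholangiocyte-like cells, which line bile ducts, Col1a1 was at 812, 523, 803, 1119.7, 1097 and 887 CPM near (control areas 1 to 3, then HIRA KO areas 1 to 3) and at 499, 543, 516, 474, 455 and 743 CPM far. It was higher near in 5 of the 6 areas, all but control area 2. The difference was 0.56 on the log2 scale (adjusted p = 0.0195). Col3a1 was at 589 CPM near and 368 CPM far on average, higher near in 6 of 6 areas (0.54, adjusted p = 0.0303). Col1a2 did not follow (1035 against 972 CPM, log2 difference 0.01). So 2 of the 6 members were called, where 25 of 998 targets were (2.51%, and 1.6% in this direction).

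Named matrix genes near cholangiocyte-like cells included Mgp (0.85), Bgn (0.48, adjusted p = 0.0467) and Col6a3 (0.38, adjusted p = 0.0297). Stellate-like cells made up 12.3% of cells near and 8.70% of cells far, which moves with these results. Within stellate-like cells only, Col3a1 was higher near (0.97, adjusted p = 0.0207, 0.651% of targets called) and Col1a1 had 0.76 (adjusted p = 0.122). The far zones of HIRA KO areas 1 and 2 held only 27 and 18 stellate-like cells, against 540 and 824 near. With all other cells, these far zones held 345 and 329 cells, against 4287 and 4429 near. With all other cells, the Col1a1 call was lost on dropping control area 3 (adjusted p = 0.0746), the first HIRA KO area (0.0565) or the second (0.0859). That of Col3a1 was lost on dropping control area 2 (0.0863) or 3 (0.114), or the first (0.0820) or second HIRA KO area (0.124).

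Around vessel wall cells, which were the large-vessel endothelial-like and myofibroblast/smooth muscle-like classes, Col3a1 alone of the members was higher near. It was at 367, 339, 557, 562, 820.4 and 602 CPM near and at 264, 257, 296, 284, 500.02 and 320.5 CPM far, higher near in 6 of 6 areas (log2 difference 0.68, adjusted p = 0.0271, 0.701% of targets called). Col1a1 had 0.24 (adjusted p = 0.923) and Col1a2 0.15. Stellate-like cells were 11.8% of near and 8.15% of far cells. The Col3a1 call rested on all areas but one, since it held only without HIRA KO area 1. It was lost without control areas 1, 2 or 3 (adjusted p = 0.0521, 0.0666 and 0.0831), without HIRA KO areas 2 or 3 (0.107 and 0.267), and without field 28 (0.59, adjusted p = 0.0884).

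Around Glul-led hepatocyte-like cells, both Col1a1 and Col3a1 were higher near. Glul, glutamine synthetase, marks the hepatocytes around central veins. Col1a1 was at 714, 578 and 600.4 CPM near in control and 1335, 1693 and 983 CPM near in HIRA KO, against 718, 538 and 395 CPM far and 881, 705 and 703 CPM far. Control areas 1 and 2 thus had nearly equal zones, while control area 3 and the HIRA KO areas were higher near. The log2 difference was 0.58 for Col1a1 (adjusted p = 0.0158) and 0.74 for Col3a1 (648 against 402 CPM, adjusted p = 0.00940), each higher near in 5 of 6 areas, among 4 called targets (0.401%). Col1a2 had 0.22. Without HIRA KO area 1 or 2 neither call held (Col1a1 adjusted p = 0.306 in both, Col3a1 0.306 and 0.261). Within stellate-like cells only, Col1a1 was higher near (0.76, adjusted p = 0.0392, 0.339% of targets called, 0.226% in this direction), but not with DESeq2 (adjusted p = 0.994), without field 28 (0.05995) or on dropping control area 1 (0.0859) or one of HIRA KO areas 2 (0.954) and 3 (0.203). Col3a1 there had 0.32 (adjusted p = 0.875).

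A difference between genotypes in these zone effects passed the test for no member. With all other cells, edgeR's interaction of zone and genotype gave 0 calls among the members at each landmark, with 0, 2 and 4 of the 6 members at an unadjusted p under 0.05 for cholangiocyte-like, vessel wall and Glul-led cells (no other tool was run). Of all targets, 0%, 0.1% and 0.2% were called at an adjusted p under 0.05 in these tests. The share of all targets at an unadjusted p is not given, so the counts of members at that threshold have no background beside them. The Col1a1 interaction at Glul-led cells was 0.59 (adjusted p = 0.415) and that of Col5a2 1.06 (adjusted p = 0.163). Within stellate-like cells only, the zone effect of Col3a1 at Glul-led cells was larger in HIRA KO by 1.68 (SE 0.50, adjusted p = 0.0955). Stellate-like cells were 12.9% of the cells near Glul-led cells and 9.40% of those far.

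**Figure D4:**
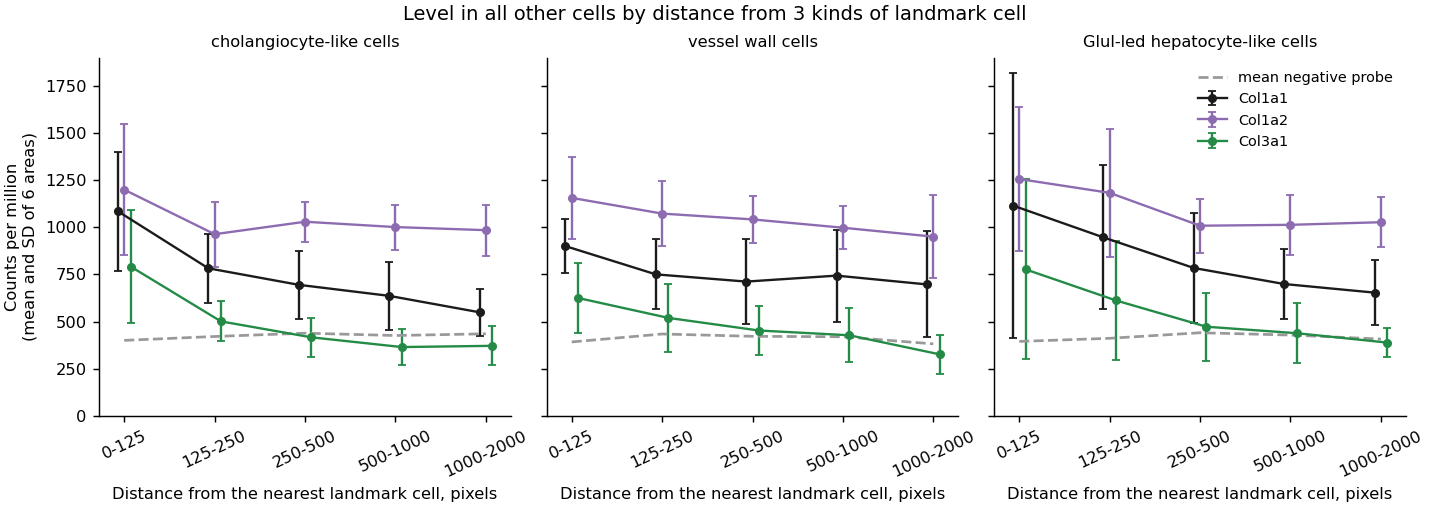
Level of Col1a1, Col1a2 and Col3a1 (CPM, linear axis from 0) in bins of distance (pixels) from the nearest cholangiocyte-like, vessel wall or Glul-led hepatocyte-like cell. Lines are means of the 6 areas, bars their SD and the dashed line the mean negative probe. From cholangiocyte-like cells, Col1a1 goes from 1086 ± 315 CPM within 125 pixels to 549 CPM at 1000 to 2000 pixels, Col3a1 from 792 ± 301 to 371 CPM and Col1a2 from 1201 ± 349 to 985 CPM.

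The ratio of the 2 chains of collagen I was higher in every HIRA KO area than in every control area, but no ratio difference passed the test. The ratio of Col1a1 to Col1a2 counts over all cells was 0.606, 0.634 and 0.575 in control and 0.897, 0.799 and 0.695 in HIRA KO (p = 0.1 in the exact test, again the lowest possible, and 0.25 adjusted over 5 ratios). In stellate-like cells it was 0.5396, 0.536 and 0.750 in control and 1.23, 1.08 and 0.832 in HIRA KO (p = 0.1, exact, adjusted 0.167). The groups overlapped in neither set of cells. Col5a1 to Col1a1 in stellate-like cells was 0.799 ± 0.272 in control and 0.264 ± 0.0458 in HIRA KO (p = 0.1, exact). Ratios between targets depend on their probes, so only their differences between areas carry information. Background counts also enter these ratios. In control, hepatocyte-like cells had 460 CPM of Col1a1 and 811 CPM of Col1a2, against 573 and 949 CPM over all cells. Their Col1a1 to Col1a2 ratio was 0.569 ± 0.110 in control and 0.621 ± 0.0590 in HIRA KO. The part of background in the ratio difference was not tested.

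The share of each gene's counts that lay in the stellate-like class depended on how background was treated. As counted, the class held 14.7 ± 9.18% of Col1a1 counts in control and 23.3 ± 7.54% in HIRA KO (p = 0.3, exact permutation test), with 8.38 and 7.68% of all counts and 9.51 and 9.93% of cells. For Col3a1 the shares were 22.3 and 28.8%. Background counts, which spread over all cells, are part of these totals. With the hepatocyte-like level of the same area taken off every class, stellate-like cells of the HIRA KO areas held 44.8, 56.8 and 55.1% of the remaining Col1a1 counts, 57.1, 60.5 and 48.8% of those of Col3a1 and 48.8, 71.4 and 67.1% of those of Col1a2. In control areas 1 to 3 the remaining counts were 115, 36.1 and 128 for Col1a1, 40.4, 46.5 and 119 for Col3a1 and 252, 6.43 and 92.6 for Col1a2. Stellate-like cells held 33.4, 33.2 and 49.2% of them for Col1a1. The values were 123, 37.8 and 69.3% for Col3a1 and 33.1, 424 and 58.8% for Col1a2. Those of 123 and 424% rest on 40.4 and 6.43 counts, too few for a share. The groups overlapped for each gene.

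Within cells, the members differed in where their transcripts lay. Of transcripts inside cells, 40.8 ± 4.72% of Col1a2, 36.4 ± 2.42% of Col3a1 and 40.7 ± 4.22% of Col5a2 lay over the nucleus (SD over 6 areas), against 48.1 ± 3.84% of the other targets, and each was below the other targets in 6 of 6 areas. Col5a3, at 55.8 ± 2.56%, was above them in 6 of 6 areas (two-sided exact sign-flip test over areas, p = 0.03125 for each of these 4 genes, the smallest possible, adjusted 0.0469). The Col1a1 share was 52.9 ± 7.51% and that of the negative probes 28.6 ± 2.19%. Background counts thus have a nuclear share of their own, and their part in the shares of the weaker members was not tested. Between genotypes, the nuclear share of Col1a1 was 57.3 ± 9.10% in control and 48.5 ± 0.718% in HIRA KO (p = 0.4, exact permutation test), and that of the other targets 50.7 ± 3.12 and 45.5 ± 2.70%. With 3 areas a group this test cannot go below 0.1, so it cannot show whether the shares differ.

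The 49 other matrix genes on the panel were compared as a fixed list. They were 7 TGF-beta and PDGF ligands, 4 receptors, 5 collagen receptors, 8 fibril partners, 2 processing enzymes, 6 proteases and inhibitors and 17 other collagens. Over all cells, none passed in edgeR (5 at an unadjusted p under 0.05) or in DESeq2 (8 at an unadjusted p under 0.05). In stellate-like cells, 1 passed, Col6a3, with a median log2 fold change over the list of 0.13, against -0.01 over all targets and 0.58 over the 6 members. Lum, a proteoglycan that regulates fibril assembly, had 0.75 (adjusted p = 0.0779). Near vessel wall and Glul-led cells none of the list passed in edgeR (5 and 5 at an unadjusted p under 0.05) or DESeq2. Shares of all targets at an unadjusted p are not given beside the list's counts at that threshold.

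The genes whose levels were most alike to the summed members included 4 of the matrix list, Bgn, Col6a3, Lum and Col14a1. Over the 50 fields, these were Bgn (r = 0.684), Col6a3 (0.646), Lum (0.596), Igfbp7 (0.591) and Ccdc80 (0.57). Over the 19 clusters, they were Gsn (0.916), Col6a3 (0.91), Col14a1 (0.856), Cxcl12 (0.801) and Igfbp3 (0.801). Fields and clusters share totals and tissue, so these are descriptions.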

How the data were processed

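The deposited table of raw counts, with 1 value for each target in each cell, was the starting point. The authors had the slide run on the CosMx platform, which decoded transcripts and assigned them to segmented cells, and no normalization was applied to these counts. Software versions for decoding and segmentation, and the pixel size, are not given in the sources used here. The later filtering and integration steps of the study are not part of the deposited counts. Cells were grouped by the field ranges of the labels into 6 tissue areas (3 control, 3 HIRA KO).

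Cells with at least 20 counts and an area up to 5 times the geometric mean were kept. Cell numbers restart in each field, so 1551 identifiers occur in more than 1 field and cells were identified by field and number together. Counts without the members were turned into Pearson residuals (theta 100, limit 10), reduced to 30 principal components and clustered (20 neighbours, Leiden resolution 1.6; leidenalg 0.10.2, Python 3.11.15), and stellate-like cells were split further at resolution 0.5. Counts summed per area, class or zone were tested with edgeR 4.0.16 in R 4.3.3 (quasi-likelihood, TMM, filterByExpr, Benjamini-Hochberg over all targets tested, threshold 0.05), with the area as a block between zones or classes. DESeq2 1.42.0 was an alternative. Single values were tested by exact permutation over areas. On simulated stellate-like counts of 998 targets, 200 of them changed, 96.3% of 2-fold and 59% of 1.5-fold changes were recovered. In the real stellate-like counts only 3 targets passed, and recovery with so few changes was not simulated. A named class was tested where no area had fewer than 50 of its cells. Unnamed classes were not tested between genotypes, whatever their size.

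The members and gene lists were chosen with earlier results of these data known. The sub-clusters, the count that defines a collagen-rich cell, and the runs without field 28 were chosen after the values were seen. Named genes were the members, matrix-list genes that passed a test (otherwise the 4 with the lowest p), and the 5 genes most alike over fields and over clusters.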

Additional observations from a re-analysis of the deposited data

Results flagged for a closer look

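In groups of 8 or 9 fields of 1 area, 5 single fields stood apart from the rest of their area in Dixon's test, of 36 groups tested (chance alone marks about 1 in 20). Field 28, in HIRA KO area 2, accounted for 3 of them, with 1936 CPM of Col1a1 (next field 1127), 2451 CPM of Col1a2 (next 1267) and 1638 CPM of Col3a1 (next 767). It held 1249 cells, of which 225 were stellate-like and 108 cholangiocyte-like. Divided into 64 tiles, the summed level of the 3 genes ran from 333 CPM in the lowest tile to 4354 at the median and 19012 in the highest, and the 16 tiles with the most counts held 60.8% of them, so the signal was not even within the field. Field 40, in control area 3, had the lowest Col1a1 of its area (273 CPM, next 499.9), and field 20, in control area 2, the highest Col3a1 (368 CPM, next 282).

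The genotype difference of Col1a1 was larger in stellate-like than in hepatocyte-like cells by 1.16 on the log2 scale, and that of Col3a1 by 0.97, both past the test of the difference itself as given above. The cause was not tested.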

How the results depend on the processing

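Of 530 alternative values for 44 results, 424 kept their direction and side of the threshold or their size, 49 lost a call, 8 gained one, 22 changed sign and 27 moved. Col1a1 in stellate-like cells kept its call under every alternative that was run. In the alternative with clusters from all genes, the members took part in the clustering. The class there pooled 3113 stellate-like cells with 2411 cells of a cluster named portal fibroblast-like and led by Col3a1 and Col1a1. Each of the other calls of a member between genotypes or between zones was lost under at least 1 alternative, and the cause was not tested. The 3 areas per group and few counts per cell limit all of these results. No paired analysis was possible because the labels give the areas no shared replicate number, but the slide row of the areas was used as a block.

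Over all cells, the number of members called (1) was 2 with DESeq2, 2 with the slide row block, 0 with library size only, 0 without field 28, and 0 to 1 with 1 area left out. Col1a1 was 0.64 with library size only (adjusted p = 0.126), 0.69 without field 28 (0.0513) and 0.68 to 0.85 with 1 area left out. Col3a1 was called with DESeq2 (0.77, 0.000317) and with the slide row block (0.79, 0.0216), and was 0.60 to 0.99 with 1 area left out. Values near 0 changed sign: Col5a1 was -0.0418 with library size only and -0.10 to 0.17 with 1 area left out, and Col5a3 -0.0724 to 0.0876. Within classes, 1 to 3 pairs were called with 1 area left out, and stellate-like Col3a1 was 0.99 to 1.47. Col5a1 there was -0.0234 with library size only, -0.0257 with at least 50 counts per cell, -0.0197 with clusters from all genes, -0.0254 at resolution 1.0, -0.0187 in the Rgs5 and Hgf sub-cluster alone and -0.0856 to 0.14 with 1 area left out.

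Zone results weakened with near widened to 500 pixels. From cholangiocyte-like cells, 0 members were called at 500 pixels, 1 with field edges left out and 0 to 2 with 1 area left out. Col1a1 was 0.35 at 500 pixels and 0.48 to 0.68 with 1 area left out, Col3a1 0.25 at 500 pixels, 0.51 without edges and 0.45 to 0.73, and Col1a2 -0.00051 at 500 pixels, -0.0299 without field 28 and -0.0610 to 0.0935. From vessel wall cells, 0 members were called at 500 pixels, 0 without edges, 0 without field 28 and 0 to 1 with 1 area left out. Col3a1 was 0.52, 0.60, 0.59 and 0.58 to 0.74, and stellate-like Col1a1 -0.0579 at 150 pixels, -0.0048 at 500 pixels and -0.13 to 0.63. From Glul-led cells, 1 member was called with DESeq2, 0 at 500 pixels and 0 to 2 with 1 area left out. Col1a1 was 0.36 at 500 pixels and 0.38 to 0.67, Col3a1 0.59 with DESeq2, 0.46 at 500 pixels and 0.46 to 0.85, and stellate-like Col3a1 -0.17 to 0.47. With 1 area left out, the Col1a1 to Col1a2 ratio differed by 0.142 to 0.243 between genotypes, the stellate-like share of the 6 members summed by 0.494 to 7.25 percentage points and the nuclear share of Col1a1 by -13.9 to -5.16 points.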

Other observations

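Transcripts outside segmented cells gave a smaller and noisier view of the same genes. Of the decoded transcripts, 5.63 ± 1.5% of Col1a1, 7.63 ± 2.24% of Col1a2, 7.91 ± 2.39% of Col3a1, 6.95 ± 2.39% of Col5a1, 7.42 ± 2.46% of Col5a2 and 5.50 ± 0.729% of Col5a3 lay outside cells (SD over 6 areas), against 6.84 ± 1.26% of the other targets and 9.94 ± 1.64% of the negative probes. No member differed from the other targets after adjustment (lowest adjusted p = 0.188, Col5a3, exact sign-flip test). Outside cells, Col3a1 was at 747 ± 315 CPM within 250 pixels of a cholangiocyte-like cell and at 455 ± 281 CPM beyond 1000 pixels, higher near in 4 of 6 areas (adjusted p = 0.656, exact sign-flip test), from 88 and 55 transcripts.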
